A study of Arabidopsis thaliana with 6 samples.

Results

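The genes described here are 3 nuclear loci, AT3G15670, AT5G44310 and AT4G12960 (GILT), that were high in 2 of 3 libraries from iron-deficient Arabidopsis anthers and low in the remaining 4 libraries of the experiment. They were chosen by their measured levels in all 6 libraries, in CPM (the reads of a locus scaled to its library's total). Fe-deficient 1 and 2 each had to reach 2 CPM, and the lower of the pair had to be at least 4 times the highest value among control 1, 2 and 3 and Fe-deficient 3. Organelle loci were left out. Of 32792 nuclear loci the rule could take, 17966 reached 2 CPM in both libraries, and 3 of them met the rule, which is 0.0167%. Because levels chose them, their levels and folds are a description and carry no test.

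All 6 libraries came from whole anthers of wild-type (WT) Arabidopsis thaliana, ecotype Col-0. Every plant had iron for 28 days, 10 on plates and 18 in hydroponics, and was then kept for 18 days either in Hoagland medium with NaFe-EDTA (control, 3 libraries) or in Fe-deficient medium to which none was added (Fe-deficient, 3 libraries). The stage is labelled PMC-TC, an abbreviation not interpreted here, and whether replicates are separate plants is not stated. Library totals were 16818171 to 22710906 estimated reads. Each library mixes the cell types of the anther, so fewer cells of a type and less RNA per cell cannot be told apart. Fe-deficient 3 stood apart from the other Fe-deficient libraries, as its levels of bHLH38 and FER1 below show.

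AT3G15670 and AT5G44310 are annotated as late embryogenesis abundant (LEA) family proteins. LEA proteins are small, very hydrophilic proteins that build up late in seed development and in tissues that lose water, where they protect other proteins and membranes during drying. Pollen also dries before it is released, and it holds LEA proteins too. Many LEA genes respond to abscisic acid, the hormone of water shortage, through promoter elements with the core ACGTG, to which bZIP transcription factors bind. GILT is annotated in the family of gamma interferon responsive lysosomal thiol reductases. In mammals the enzyme of that name opens disulfide bonds of proteins in the lysosome.

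AT3G15670 lies on chromosome 3 (TAIR10.1, 5309886 to 5310988, minus strand) with 2 exons and 678 coding bases. AT5G44310 lies on chromosome 5 (17847781 to 17849536, minus strand) with 2 annotated transcripts, of 1 exon and of 2 exons. GILT lies on chromosome 4 (7583239 to 7584759, plus strand) with 5 exons and a coding length of 702 bases in its first transcript. No annotated gene overlapped any of the 3 loci. The nearest protein-coding neighbour of AT3G15670 on one side was GRX4, a glutaredoxin, 261 bases away. Fe-deficient 1 and 2 had 59.9 and 71.2 CPM of GRX4, and the controls had 71.2 to 76.0 CPM. On the other side AT3G15680, 3828 bases away, had 6.01 and 5.72 CPM in these libraries and 10.4 to 16.4 CPM in the controls. STOMAGEN, which encodes a peptide that promotes stomata in leaves, lies 1109 bases from GILT. Its level was 1.25 and 2.99 CPM in Fe-deficient 1 and 2, below the controls at 3.72 to 6.69 CPM. None of these 3 neighbours was higher in both Fe-deficient 1 and Fe-deficient 2 than in all controls.

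The 250 bases before the annotated start of each locus are shown because the 3 loci share a level pattern, and the core ACGTG was found in all 3. They were read from the TAIR10.1 genome at chr3:5310989-5311238 (minus strand), chr5:17849537-17849786 (minus strand) and chr4:7582989-7583238 (plus strand), and capitals mark ACGTG on either strand (written CACGT where it lies on the other strand).
AT3G15670: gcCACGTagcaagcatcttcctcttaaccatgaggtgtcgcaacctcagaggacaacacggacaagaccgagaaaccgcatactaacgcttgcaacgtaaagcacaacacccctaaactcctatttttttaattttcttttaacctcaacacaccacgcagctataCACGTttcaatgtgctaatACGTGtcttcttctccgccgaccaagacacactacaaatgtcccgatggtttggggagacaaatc
AT5G44310: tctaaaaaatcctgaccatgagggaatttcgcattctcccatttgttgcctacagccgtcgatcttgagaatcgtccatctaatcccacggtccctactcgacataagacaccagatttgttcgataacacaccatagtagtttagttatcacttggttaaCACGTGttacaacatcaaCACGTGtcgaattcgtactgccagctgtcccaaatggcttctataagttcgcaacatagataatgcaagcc
GILT: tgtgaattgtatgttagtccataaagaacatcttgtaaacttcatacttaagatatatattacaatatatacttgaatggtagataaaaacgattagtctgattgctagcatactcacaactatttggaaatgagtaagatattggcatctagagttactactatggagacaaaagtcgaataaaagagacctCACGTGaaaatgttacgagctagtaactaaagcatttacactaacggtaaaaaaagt

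The capitals form 3 stretches upstream of AT3G15670, 2 upstream of AT5G44310 and 1 upstream of GILT. Among 19692 promoters of the same length, from protein-coding loci with at least 2 CPM in a library, 23.5% held ACGTG. Both stretches of AT5G44310 and the stretch of GILT are the palindrome CACGTG, which contains ACGTG on both strands and was searched for after the sequences were seen. It occurred in 7.41% of the same promoters. Of the other motifs searched on both strands, TTGAC (in 44.3% of promoters) and the MEF2-type CArG box, which MIKC* MADS-box factors of pollen bind (2.03%), were in none of the 3 windows. AGAAA (82.0%) was found upstream of AT3G15670, GTGA (77.3%) upstream of GILT and AT5G44310, and AACGG (22.0%) upstream of GILT. At GILT, 2 of its 4 GTGA sites overlap the CACGTG stretch. The base composition of the windows differed, with 46.0% G and C for AT3G15670, 43.2% for AT5G44310 and 30.8% for GILT beside a median of 31.2% over all promoters. These matches describe letters in the window and show no binding.

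AT3G15670 had the largest ratio of the 3 loci. Its level was 17.4 CPM in Fe-deficient 1, from 293 estimated reads, and 16.8 CPM in Fe-deficient 2, from 326. It was 0.426, 2.35 and 1.23 CPM in controls 1, 2 and 3, and 0.923 CPM in Fe-deficient 3. Fe-deficient 1 and 2 were close to each other, and Fe-deficient 3 lay between control 1 and control 3. The lower of the 2 high libraries was 7.16 times the highest of the other 4, with a 95% interval of 5.16 to 10.2 (exact, from the binomial split of 326 and 41 reads, counting error only). The controls themselves were 5.51-fold apart. The mean was 11.7 ± 9.35 CPM in Fe-deficient anthers and 1.34 ± 0.964 CPM in controls (SD, n = 3), so the Fe-deficient libraries spread over most of their mean. The edgeR log2 fold change of Fe-deficient over control was 3.36 (SE 1.16), given as a description.

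GILT was low and even outside the pair that chose it. Fe-deficient 1 had 3.27 CPM (55 reads) and Fe-deficient 2 had 3.86 CPM (75 reads). In controls 1, 2 and 3 it was 0.479, 0.343 and 0.396 CPM, and in Fe-deficient 3 it was 0.554 CPM. Fe-deficient 3 was above every control, with counting intervals that overlap (0.286 to 0.968 CPM there, 0.219 to 0.909 CPM in control 1). The ratio was 5.90 with a 95% interval of 3.12 to 12.1 (exact, counting error only), so that the threshold of 4 lies inside it. Levels were 2.56 ± 1.77 CPM in Fe-deficient anthers and 0.406 ± 0.0683 CPM in controls (SD, n = 3), with an edgeR log2 fold change of 2.85 (SE 0.79) as a description.

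AT5G44310 was the locus nearest to the threshold, with a ratio of 4.20 (95% interval 2.02 to 9.82, exact, counting error only). Fe-deficient 1 had 3.03 CPM (51 reads) and Fe-deficient 2 had 2.16 CPM (42 reads). The controls had 0.213, 0.515 and 0.176 CPM, and Fe-deficient 3 had 0.323 CPM, within the control range. These low levels rest on 4 to 9 reads a library. Means were 1.84 ± 1.38 CPM in Fe-deficient anthers and 0.301 ± 0.186 CPM in controls (SD, n = 3). The locus did not pass the low-count filter of the edgeR fit, and without that filter its log2 fold change was 2.82 (SE 0.93).

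**Figure D1:**
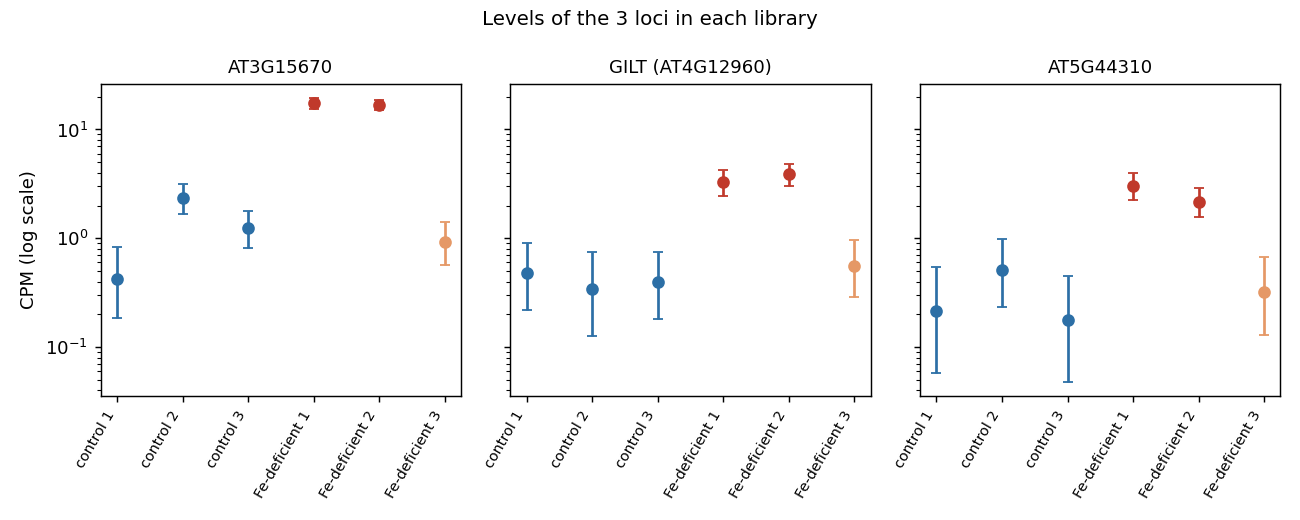
Level (CPM, log axis) of the 3 loci in each of the 6 libraries, with bars for the exact 95% Poisson interval of the read count. Fe-deficient 1 and 2, which chose the loci, lie between 2.16 and 17.4 CPM, and the other 4 libraries lie between 0.176 and 2.35 CPM.

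On the TPM scale, which also divides by transcript length, AT3G15670 had 19.7 and 19.3 TPM in Fe-deficient 1 and 2. GILT had 4.07 and 4.89 TPM there, and AT5G44310 had 2.65 and 1.80 TPM. AT3G15670 was thus the highest of the 3 and AT5G44310 the lowest in both libraries. The pair of libraries was not ordered alike at the 3 loci, since in CPM GILT was 1.18-fold higher in Fe-deficient 2 while AT5G44310 was at 0.714 and AT3G15670 at 0.964 of its Fe-deficient 1 level. On the TPM scale AT5G44310 no longer met the rule, because its 1.80 TPM in Fe-deficient 2 is under 2. Of its 2 transcripts, the longer AT5G44310.2 took all 42 reads in Fe-deficient 2 and 32.0 of the reads in Fe-deficient 1, where AT5G44310.1 took 19.0. These are annotated from different starts, and the promoter window above belongs to AT5G44310.2. In control 3 the 4 reads were given to AT5G44310.1. All GILT reads were given to its first transcript, AT4G12960.1, in each of the 6 libraries. That transcript is 949 bases long in the deposited tables and 1111 bases in the annotation used for the start site above.

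Reads of the 2 LEA loci could be told from those of other genes. None of the 990 31-base words of the AT3G15670 transcript, and none of the 1456 of AT5G44310, occurred elsewhere in the TAIR10.1 genome. For GILT 17 of 1138 words did. The GILT family has 5 annotated loci. AT4G12870 had 1.07 CPM in Fe-deficient 1, 2.16 CPM in Fe-deficient 2 and 1.60 to 1.72 CPM in the controls, so it did not share the pattern. AT4G12900 had 0.119 and 0.258 CPM there, below all controls (0.458 to 1.06 CPM), and its highest level was 1.43 CPM in Fe-deficient 3. AT4G12890 had 0.297, 0.670 and 0.0923 CPM in Fe-deficient 1, 2 and 3 and no reads in the controls. OSH1 stayed at or under 0.277 CPM in all 6 libraries.

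LEA7 (AT1G52690), one of several further loci with the annotation that AT3G15670 and AT5G44310 share, was also highest in Fe-deficient 1 and 2. Its ratio was smaller than that of AT3G15670. Per length its level was higher (106.9 and 132.5 TPM in Fe-deficient 1 and 2). Fe-deficient 1 had 66.8 CPM and Fe-deficient 2 had 81.4 CPM. The controls had 20.1, 29.0 and 16.7 CPM and Fe-deficient 3 had 26.4 CPM. The groups overlapped through Fe-deficient 3 alone, and the ratio used by the rule was 2.30. The edgeR log2 fold change was 1.61 (SE 0.48). AT2G03850, also with this annotation, had 398 and 350 CPM in Fe-deficient 1 and 2, below the controls (455 to 645 CPM). AT4G21020, again with this annotation, was hardly detected. It had 0.654 CPM in Fe-deficient 1, no reads in Fe-deficient 2 and at most 0.229 CPM elsewhere.

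Loci annotated as LEA or dehydrin (54 in all, without the hydroxyproline-rich glycoproteins of similar name) were collected after the 3 loci were known, and 34 of them passed the filter of the fit. At least 2-fold above the other 4 libraries in both Fe-deficient 1 and 2 were 6 of the 34, where 1.36% of all 21195 nuclear loci tested were. AT3G15670 is 1 of the 6, and no test was made of this share. The others were LEA7, LEA4-5, AT1G15415, AT4G13230 and AT4G36600. LEA4-5, a group 4 LEA protein known from water deficit, had 116, 71.4 and 15.6 CPM in Fe-deficient 1, 2 and 3, and 4.63, 29.9 and 30.1 CPM in the controls. AT4G13230 had 582 and 501 CPM against 43.5, 247 and 229 CPM in the controls and 157 CPM in Fe-deficient 3. In both of these loci Fe-deficient 3 lay within the control range, as in AT3G15670.

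Some other LEA loci did not follow this, or followed it less evenly. The dehydrin gene ERD14 was highest in Fe-deficient 3 (134 CPM) and Fe-deficient 1 (128 CPM), with 72.8 CPM in Fe-deficient 2 and at most 62.2 CPM in a control. LEA18 was above the other 4 libraries in both Fe-deficient 1 and 2 but differed between them. It had 19.0 CPM in Fe-deficient 1, 6.39 CPM in Fe-deficient 2, 3.74 CPM in Fe-deficient 3 and at most 2.23 CPM in a control. AT2G03740 was lower in all 3 Fe-deficient libraries (229, 347 and 170 CPM) than in any control (389 CPM or more). Both Fe-deficient 1 and 2 were above the other 4 libraries in 21 of the 34 LEA loci tested, where 12.8% of all loci tested were.

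**Figure D2:**
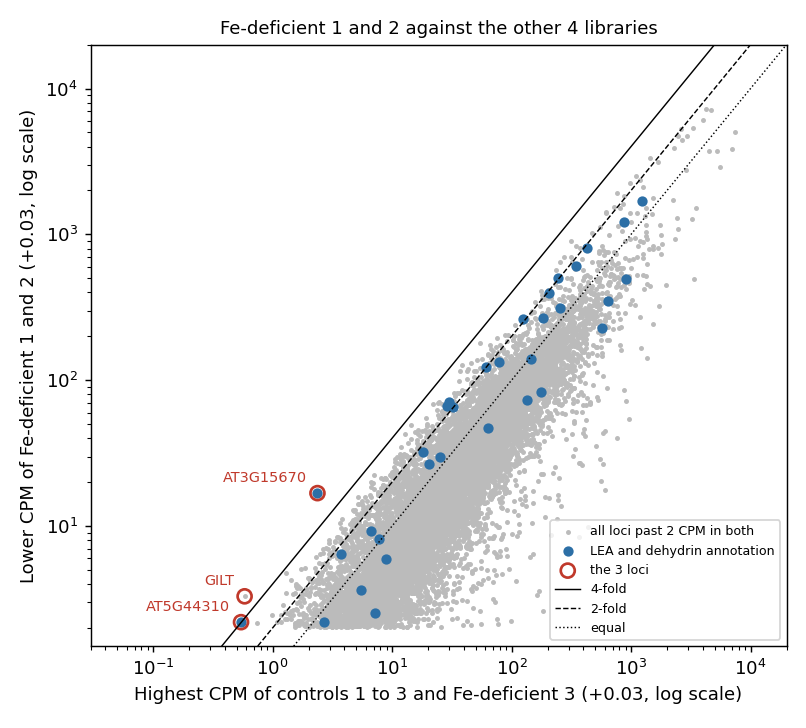
Lower CPM of Fe-deficient 1 and 2 against the highest CPM of the other 4 libraries for each nuclear locus with at least 2 CPM in both (both axes log, 0.03 CPM added for drawing). Red rings mark the 3 loci past the 4-fold line, and blue points the loci drawn that have the LEA and dehydrin annotation. Of the 34 tested loci of that annotation, 6 lie past the 2-fold line, as does AT5G44310, which was not tested.

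Genes of the abscisic acid and dehydration list, 15 of 17 tested, gave 1 locus (6.67%) at least 2-fold higher in both libraries, where 1.36% of all loci tested were. Both Fe-deficient 1 and 2 were above the other 4 libraries in 8 of the 15 (53.3%), where 12.8% of all loci tested were. RAB18 and ERD10 are in this list and also in the LEA and dehydrin annotation, so the shares are not separate. The locus past 2-fold was NCED3, the enzyme that limits abscisic acid synthesis, with 17.1 CPM in Fe-deficient 1, 6.03 CPM in Fe-deficient 2 and 1.98 to 2.95 CPM in the other 4 libraries. EM1, a LEA gene of seeds, had 3.98 and 1.34 CPM in Fe-deficient 1 and 2 and at most 0.528 CPM elsewhere, and so fell short of 2 CPM. RD29B (listed as LTI65), an abscisic acid reporter gene, had 2.32 and 0.979 CPM and at most 0.286 CPM elsewhere. It did not pass the filter of the fit and is not among the 15. In all 3 the level in Fe-deficient 1 was more than that in Fe-deficient 2, unlike GILT. RD26, a NAC factor of the same response, had 12.7 and 9.17 CPM, and 12.7 CPM in Fe-deficient 3 as well, against at most 4.06 CPM in a control. ABI5, a bZIP factor of this pathway, had 48.0 and 55.5 CPM against 36.3 to 48.6 CPM in the controls, with overlap.

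Loci just short of the rule show how the 4 low libraries differed among themselves. Between 3-fold and 4-fold lay 10 further loci. Just below the threshold were EXO70H5, an exocyst subunit that helps secretion (ratio 3.73), LCR72, a small cysteine-rich protein (3.42), and AT3G22510 (3.34). EXO70H5 had 4.76 and 6.13 CPM in Fe-deficient 1 and 2, 1.28 CPM in control 3, 0.785 CPM in Fe-deficient 3 and no reads in controls 1 and 2. LCR72 had 49.5 and 60.8 CPM in Fe-deficient 1 and 2, 14.5 CPM in control 3, 12.7 CPM in Fe-deficient 3, 3.20 CPM in control 2 and none in control 1. In both loci control 3 was the highest control, whereas in the 3 loci of the rule it was not.

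Over the 10 loci the median log2 ratio of control 3 to control 1 (with 0.1 CPM added) was 4.87, and control 3 was the highest control in 9 of them. For the 3 loci of the rule the ratios were 1.34 for AT3G15670, -0.18 for AT5G44310 and -0.22 for GILT, a median of -0.18. Over 286 loci that were at least 2-fold but not 4-fold higher, the median was 3.48, and control 3 was the highest control in 240. Over all 21195 loci tested the median was 0.0, and control 3 was the highest control in 7367. The rule limits the highest of the 4 low libraries, so a locus raised in control 3 could less easily pass it, and these ratios are given without a test. When control 3 was left out, 102 loci met the rule, among them, by construction, the same 3. Leaving out control 1 gave 3 loci and leaving out control 2 gave 4.

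**Figure D3:**
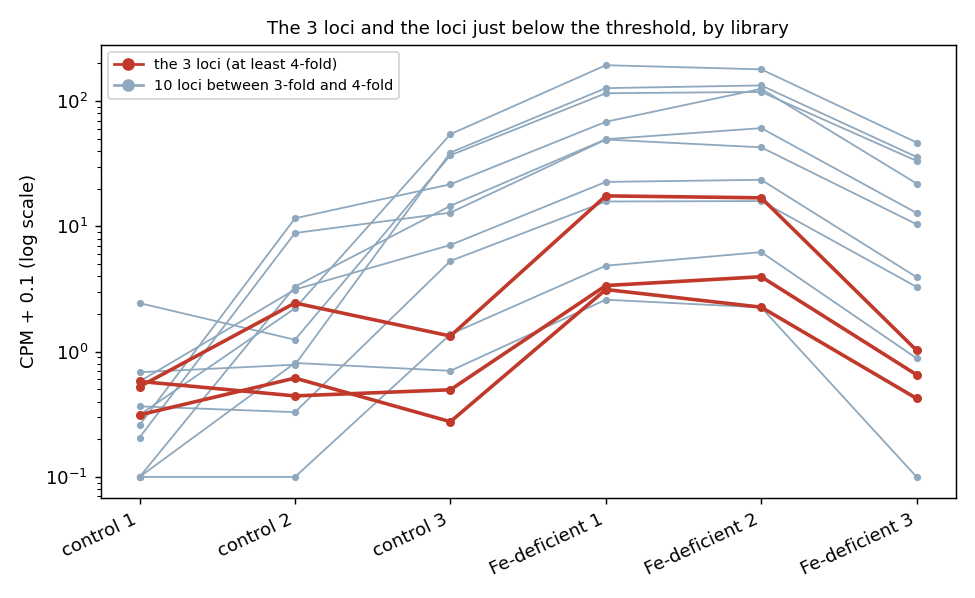
CPM plus 0.1 (log axis) in each library for the 3 loci (red) and the 10 loci between 3-fold and 4-fold (grey blue). Lines join the values of 1 locus and imply no order of libraries. Most grey blue loci are raised in control 3 and Fe-deficient 3 above control 1. So is AT3G15670 among the red loci, with 1.23 and 0.923 CPM above 0.426 CPM. In the controls and Fe-deficient 3 the red loci lie between 0.176 and 2.35 CPM.

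Of the 10 loci, 2 are in the pollen lists used below, CPK34 and LRX8 (AT3G19020). CPK34, a calcium-dependent kinase of pollen tubes, had 15.7 and 15.8 CPM in Fe-deficient 1 and 2, with 5.20 CPM in control 3, 3.18 CPM in Fe-deficient 3, and 0.266 and 0.229 CPM in controls 1 and 2. LRX8, a wall protein of pollen tubes, had 127 and 133 CPM against 38.8 CPM in control 3, 35.7 CPM in Fe-deficient 3 and at most 0.687 CPM in controls 1 and 2. In the 6 pollen lists (signalling, ion and water transport, sugar supply, tube wall, cytoskeleton, transcription factors), 0 of 116 loci met the 4-fold rule. Of all nuclear loci past 2 CPM in both libraries 0.0167% met it, so this 0 is the background and nothing is read from it. At least 2-fold higher were 38 of 109 tested, against 1.36% of all loci tested. The share was 18 of 29 for tube signalling and 11 of 22 for the tube wall. Both Fe-deficient 1 and 2 were above the other 4 libraries in 95 of the 109 (87.2%), where 12.8% of all loci tested were. By list this ran from 5 of 11 for sugar supply to 29 of 29 for tube signalling. ANX1, a receptor kinase that keeps the tube wall intact, had 41.2 and 33.1 CPM against 2.08, 9.44 and 14.3 CPM in controls 1 to 3 and 12.8 CPM in Fe-deficient 3. VGDH1, a pectin methylesterase of pollen tubes, had 931 and 906 CPM against 1.86, 171 and 268 CPM in controls 1 to 3 and 312 CPM in Fe-deficient 3.

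Sperm lineage genes gave 3 of 10, which were DAZ2, PCR11 and DAU2, and pollen transcription factors 0 of 13. Without the 2-fold limit, Fe-deficient 1 and 2 were both above the other 4 libraries in 7 of these 10 and 11 of these 13. None of 22 tested genes of the tapetum (the nursing cell layer of the anther), the outer pollen wall and meiosis was at least 2-fold higher. In that list the median log2 ratio of the lower high library to the highest of the other 4 (0.1 CPM added) was -2.25, beside -0.65 over all loci tested and 0.86 over the 6 pollen lists. The heat shock list and the defence and senescence list, each with 3 loci tested, had 0 at least 2-fold higher, which at 1.36% of all loci tested is the background. The same holds for the counts of 0 among 22 and among 13.

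**Figure D4:**
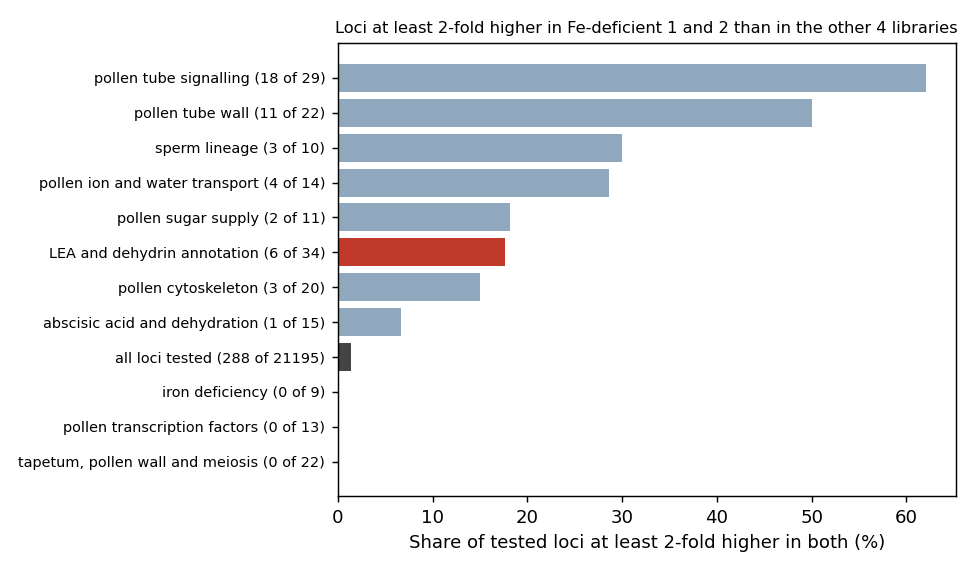
Share of tested loci in each list (at least 5 tested) that were at least 2-fold higher in both Fe-deficient 1 and 2 than in the highest of the other 4 libraries, with counts in the labels. The LEA and dehydrin annotation (red) stands at 6 of 34, and all loci tested (dark) at 288 of 21195.

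Of 9 tested genes of the iron-deficiency list, 0 were above the other 4 libraries in both Fe-deficient 1 and 2. With 12.8% of all loci tested above them, a count of 0 among 9 is near the background and nothing is read from it. bHLH38, a transcription factor induced by iron shortage, had 0.119 and 0.103 CPM in Fe-deficient 1 and 2 and 209 CPM in Fe-deficient 3, against at most 0.0532 CPM in a control. FER1, the iron store ferritin, had 361, 524 and 33.6 CPM in Fe-deficient 1, 2 and 3 and 402 to 456 CPM in the controls. When Fe-deficient 3 was left out, 18 loci met the rule. The 15 added ones are by construction also above all controls in Fe-deficient 3, such as HIPP22, a metal-binding isoprenylated protein, with 28.2, 17.1 and 23.3 CPM in Fe-deficient 1, 2 and 3 and at most 4.12 CPM in a control.

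Seed markers were looked at because LEA genes are best known from seeds. Of the 8, 4 were below 1 CPM in each library, and the cruciferin gene CRU3 had no reads in any. The sum of the 8 was 23.1, 17.2 and 12.4 CPM in Fe-deficient 1, 2 and 3 and 6.54 to 14.8 CPM in the controls, so it was highest in the pair where the LEA loci were high. Most of it came from FUS3 (15.4 and 11.3 CPM) and SESA4 (7.25 and 5.77 CPM). The other seed markers that reached 1 CPM in a library, CRA1 and OLEO1, did not go with it. CRA1 was highest in control 1 (1.33 CPM), with 0.357 CPM in Fe-deficient 1 and no reads in Fe-deficient 2. OLEO1 was highest in Fe-deficient 3 (1.11 CPM), with 0.0595 CPM in Fe-deficient 1 and no reads in Fe-deficient 2. The part of these markers in the result was not tested. Leaf and sepal markers (8, photosynthesis genes and the MADS-box factor AP1) summed to 3188 and 3209 CPM in Fe-deficient 1 and 2. Their sum was 4630 to 6403 CPM in the other 4 libraries. RBCS1A, CAB1, RCA, PSBO1 and GAPA were below every control in both Fe-deficient 1 and 2. LHCA1 (336 and 322 CPM) and AP1 (12.6 and 13.8 CPM) lay within the control range. LHCB2.1, at 154 and 66.3 CPM, was above the controls (62.1 to 63.7 CPM). The stamen identity genes AP3, PI and AG summed to 789.6 to 1001 CPM in all 6. Pistil and ovule markers (9, with 1 below 1 CPM throughout) summed to 31.7 CPM in both Fe-deficient 1 and 2 and to 33.6 to 55.3 CPM in the others. Root markers (7, with 4 below 1 CPM throughout, RHD6 and EXPA7 at 0) summed to 58.0 and 34.7 CPM in Fe-deficient 1 and 2 and to 28.8 to 76.2 CPM in the others.

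For Fe-deficient against control across all genes, edgeR's quasi-likelihood test called 0 of 21267 loci (0%) higher and 0 (0%) lower at an adjusted p under 0.05, and DESeq2 called 2.03% higher and 1.37% lower. At an unadjusted p under 0.05 edgeR had 1560 higher and 1296 lower. Each Fe-deficient library was above all controls in 5.88% of the loci tested. Of the 3 loci this held for GILT, whereas Fe-deficient 3 overlapped the controls in both LEA loci. The rule used this contrast, so nothing is read from that count.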

How the data were processed

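Single-end RNA-seq libraries were trimmed with Trimmomatic 0.35 and quantified with Salmon 0.12.0, and TAIR10 is named, per the submitters' processing notes. The deposited tables hold, per transcript, estimated counts and TPM as Salmon gives them, per the file headers. No source used here gives the strand handling. Over all transcripts and libraries, zeros included, 75.3% of the estimated counts were exactly whole (tolerance 0).

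Estimated counts were summed per locus and divided by the library total to give CPM. Summed counts were rounded to whole numbers and fitted with edgeR 4.0.16 (quasi-likelihood, TMM, filterByExpr, group as the only term) under R 4.3.3, with Benjamini-Hochberg adjustment over all loci tested. DESeq2 1.42.0 was the alternative. The edgeR fit, and not DESeq2, was run on simulated data with known changes. Intervals are exact and cover counting error only. Gene models, neighbours and promoters came from the RefSeq annotation of TAIR10.1.

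Named genes were the 3 loci, the 3 nearest to the threshold, and listed loci. The members and lists were chosen with earlier results of these data known. The LEA, dehydrin and GILT annotation sets, the 2-fold count, CACGTG and other genes singled out from the lists were chosen after values were seen. Alternatives were other thresholds, TMM-scaled CPM, TPM, no low-count filter, a replicate block and leaving out each library.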

Additional observations from a re-analysis of the deposited data

How the results depend on the processing

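The number of loci meeting the rule depended on its thresholds. With a factor of 3 it was 13 and with 8 it was 0. A minimum of 5 CPM left 1 locus (AT3G15670). TMM-scaled CPM gave 5 and TPM gave 8, which kept AT3G15670 and GILT and dropped AT5G44310. The loci that TPM added had few reads, at most 0.476 CPM in Fe-deficient 1 and 2. A factor of 2, chosen after seeing the data, gave 289. Leaving out 1 library gave 3 to 102 loci. There were 102 without control 3, 72 without Fe-deficient 1, 75 without Fe-deficient 2 and 18 without Fe-deficient 3. Leaving out a library can only loosen the rule, so all 3 loci were among them by construction. Under the alternatives fitted, the log2 fold changes were 2.79 to 4.03 for AT3G15670, 2.42 to 3.35 for GILT and 2.53 to 3.43 for AT5G44310. There were 11 alternatives for AT3G15670 and for GILT. AT5G44310 had 4, which left out a control or Fe-deficient 3. The rule chose loci high in Fe-deficient 1 and 2, so the positive sign was built in and nothing is read from it. In TPM the median log2 ratio of control 3 to control 1 over the 3 loci was 0.04 in place of -0.18.

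Across all loci, DESeq2 called 723 and edgeR called 0, and edgeR called 0 to 0 when 1 library was left out. The deviations of same-numbered libraries had mixed correlations (-0.179, 0.427 and -0.117). The value of 0.427, for control 2 with Fe-deficient 2, was the highest of any control with any Fe-deficient library. With so few libraries per group, these correlations cannot decide whether the numbers pair the libraries. With a replicate block edgeR also called 0, with 1176 higher and 1499 lower at an unadjusted p under 0.05. GILT and AT5G44310 rest on 12 reads or fewer in each low library.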
